A study of Mus musculus with 6 samples.

Results

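Potassium and calcium channel genes were examined in Pdgfra-expressing cells of the postnatal mouse lung. The genes were taken by their symbols, which begin with Kcn or Cacn and end in a subunit number, with a further letter for the calcium channel pores. Of 48397 symbols in the count files, 114 met this rule, 92 named for potassium channels and 22 named for voltage-gated calcium channels. The alpha2delta subunit genes Cacna2d1 to Cacna2d4 are spelled outside it and are described below among the partner genes.

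All 6 libraries came from lungs of PdgfraEGFP/+ pups, which carry a green fluorescent reporter at 1 Pdgfra allele, harvested at postnatal day 8. Pregnant PdgfraEGFP/+ dams had received, by intraperitoneal injection at E18.5, either the anti-hedgehog antibody 5E1 or control IgG, giving 3 libraries per group. Live EGFP-positive cells were sorted and sequenced in bulk after poly(A) selection, so the sort kept whichever cells carried the reporter at harvest. Whether replicate libraries stem from different pups, pools or litters is not given in the labels. IgG replicate 3 and 5E1 replicate 1 each had 2 reads of the Y-linked genes Ddx3y, Eif2s3y, Kdm5d and Uty. The other libraries had 3592 to 6913 such reads. Those with 2 reads thus held nearly no male material and do not repeat the same animal or pool as the rest of their group. If libraries are pools, a shared female animal cannot be told from these reads. The p-values still reflect no more than library-to-library spread, which may be technical between the remaining libraries of a group. The sample numbers in the titles run through IgG first and 5E1 after, so any effect of that order cannot be told apart from the antibody.

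Reads assigned to genes numbered 16958433 to 34318583 per library. Fibroblast genes dominated, with the summed level of Pdgfra, 3 collagen genes, Dcn and Tcf21 at 44350 to 101900 CPM (library-scaled counts, made as described in the processing notes). Markers of neurons summed to 2.2 to 6.37 CPM and those of Schwann cells to 4.65 to 10.2 CPM, and Chga, of neuroendocrine cells, had 0 CPM in every library. The hedgehog readouts Ptch1, Gli1 and Hhip together measured 981 to 1109 CPM in IgG and 210.5 to 291 CPM in 5E1. In bulk RNA, fewer cells of a type and less RNA per cell cannot be told apart.

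Potassium channels let potassium leave the cell and hold the membrane potential negative, whereas voltage-gated calcium channels open on depolarisation and admit calcium, which triggers contraction and gene expression. Both are built from pore-forming subunits and auxiliary subunits that set their gating and their number at the surface. In lung vessels and airways these channels are known chiefly from smooth muscle, where they control tone. Fibroblasts and pericytes also carry several of them.

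Most channel genes were silent or nearly so in these cells. Of the 114 genes, 10 had no read in any library, 59 had enough reads to be tested and 44 reached at least 1 CPM in 3 libraries. A gene was called changed at an adjusted p under 0.05 (edgeR quasi-likelihood test, Benjamini-Hochberg over all 16198 genes tested). On this criterion 5 tested channel genes rose in 5E1 and 12 fell, while over all genes tested 23.2% were called, 12.1% higher and 11.1% lower. Among the 44 genes of at least 1 CPM in 3 libraries, 4 rose and 12 fell, beside 13.4% higher and 12.6% lower among all genes of that level, where 26% were called. The median log2 fold change, 5E1 over IgG, was 0.15 over the 59 tested channel genes and -0.08 over the 44, against 0.00087 over all genes tested and -0.017 over all genes of at least 1 CPM in 3 libraries. Libraries of the groups did not overlap for 25 of the 59, 12 higher and 13 lower in 5E1, and for 42.2% of all genes tested, 20.8% higher and 21.4% lower. Among the 44 this held for 8 higher and 12 lower, beside 45.4% of all genes of that level, 21.7% higher and 23.7% lower.

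Levels were first compared between genes per length, as CPM per kb of annotated exon. In IgG the order was led by Cacnb3, an auxiliary beta subunit of calcium channels that aids their surface delivery, at 41.3 ± 2.78 CPM per kb (SD, n = 3). Kcne4, a single-pass subunit that modulates voltage-gated potassium channels, followed at 30.6 ± 8.47 CPM per kb, and Kcnk3, a background potassium channel closed by extracellular acid, at 30.0 ± 3.52 CPM per kb. These values of Kcne4 and Kcnk3 lay within each other's spread. Cacng7, named as a calcium channel gamma subunit, measured 18.9 ± 1.21 CPM per kb. Kcnj8, a pore subunit of ATP-sensitive potassium channels, measured 18.9 ± 3.21 CPM per kb. The values of Cacng7 and Kcnj8 were also within each other's spread.

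The same order in 5E1 was different at its top. Kcne4 at 34.7 ± 7.91, Kcnj8 at 29.4 ± 2.26 and Cacnb3 at 26.03 ± 3.45 CPM per kb now held the first places, with spreads that overlapped between neighbours. Kcnk3 moved from the 3 highest to rank 9 at 9.15 ± 1.25 CPM per kb, and Kcna2, a delayed-rectifier subunit best known from axons, moved from rank 19 to rank 10. Cacna1g, Cacna1d, Kcns3 and Cacna1c were also among the 10 highest over all libraries. With the longest transcript in place of all exon bases, 9 of these 10 genes were again among the 10 highest.

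**Figure D1:**
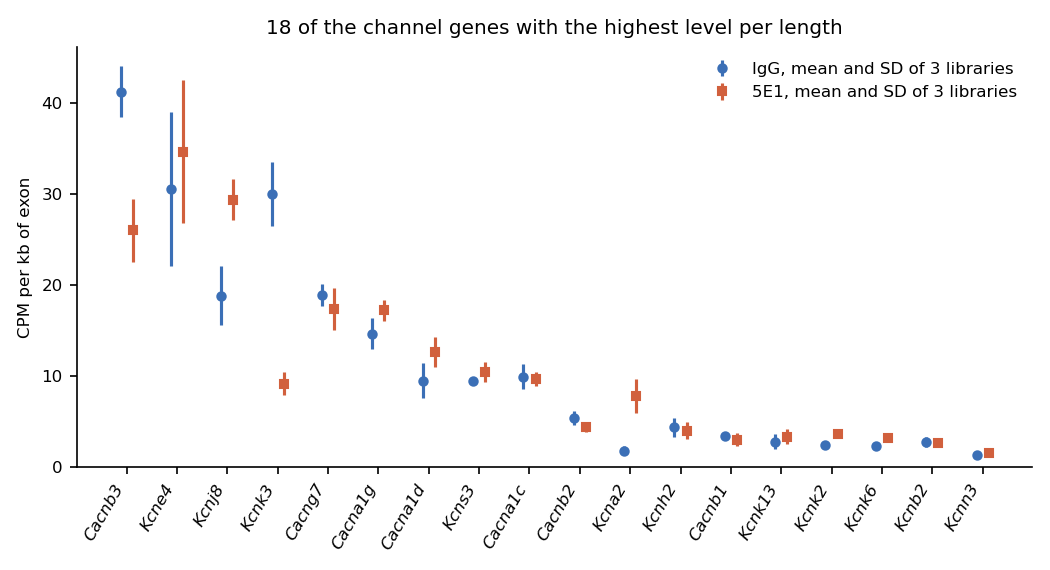
Level per length, in CPM per kb of exon (linear axis), of 18 channel genes with the highest means over the 6 libraries, with circles for IgG, squares for 5E1 and bars for the SD of 3 libraries. Kcnk3 fell from 30.0 to 9.15 CPM per kb, Kcnj8 rose from 18.9 to 29.4, and Cacna1c lay at 9.91 and 9.65.

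Among the 40 pore subunits of voltage-gated potassium channels (Kv), 18 were tested, of which 1 rose and 4 fell, beside 12.1% higher and 11.1% lower among all genes tested. With so few genes, no family's count is read as different from that background. Kcna2 was the one that rose. It measured 20.4, 15.5 and 27.6 CPM in IgG replicates 1 to 3 and 69.5, 112.5 and 97.0 CPM in 5E1 replicates 1 to 3. Every 5E1 library was above every IgG library, and the rise was 4.38-fold (log2 fold change 2.13, SE 0.25, edgeR adjusted p 0.00173). Kcna3, of the same Kv1 subfamily and known from lymphocytes, measured 1.78 ± 0.336 CPM in IgG and 2.92 ± 0.272 in 5E1 and did not pass (adjusted p 0.0848). Leukocyte markers moved alongside, 6 of 8 tested being called higher, beside 12.1% of all genes tested. Their summed level was 44.1 to 53.2 CPM in IgG and 157 to 235 CPM in 5E1. S100a8 and S100a9 rose most, from means of 3.03 and 6.21 CPM to 49.8 and 74.3 CPM. Csf1r and the lymphocyte gene Cd79a did not pass (edgeR adjusted p 0.103 and 0.293). Cd3e, also of lymphocytes, had too few reads to be tested. The part of leukocyte markers in the result was not tested.

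Kcna6, a further Kv1 subunit, ran the other way. Its levels were 11.7, 10.4 and 6.93 CPM in IgG and 2.66, 1.52 and 2.98 CPM in 5E1, with no overlap. It was 4.09-fold lower in 5E1 (log2 fold change -2.03, SE 0.29, edgeR adjusted p 0.000913). On mm10, Kcna6 lies on chromosome 6 (126708329 to 126740674) and Kcna2 on chromosome 3 (107101146 to 107115005). Exons of Kcna6 share 2355 bases with Gm26673 on the opposite strand, which had 2 reads over the IgG and 0 over the 5E1 libraries.

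Kcnq5, which can form M-type channels, measured 3.40 ± 0.976 and 1.76 ± 1.09 CPM and did not pass (adjusted p 0.168), except in the unfiltered fit (0.0137) and with a replicate block (0.0497).

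The Kv4 channels, which give a fast transient current, fell in both of their tested pore genes. Kcnd3 measured 7.63, 5.21 and 5.59 CPM in IgG and 2.23, 3.48 and 3.53 CPM in 5E1, 1.98-fold lower (edgeR adjusted p 0.0169, and 0.0898 without IgG replicate 1). Kcnd1, on the X chromosome, fell from 8.96 ± 1.89 to 5.22 ± 0.997 CPM (n = 3 each, edgeR adjusted p 0.0251). That call ended without IgG replicate 2 (0.106) or 5E1 replicate 2 (0.0552) and with a replicate block (0.0531). Kcnip1, a calcium-binding auxiliary subunit of Kv4 channels, fell from 1.63 ± 0.343 to 0.595 ± 0.156 CPM (2.76-fold, edgeR adjusted p 0.0253). For Kcnip1 the adjusted p was between 0.0576 and 0.0937 when IgG replicate 1 or 2, or 5E1 replicate 2 or 3, was left out, and 0.0544 with a replicate block. Kcnip4 of the same subfamily measured 0.882 ± 0.281 and 2.01 ± 0.811 CPM and did not pass (adjusted p 0.0550), but DESeq2 (0.0376), the unfiltered fit (0.0282) and the fit to genes of at least 1 CPM in 3 libraries (0.0458) called it.

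The remaining tested Kv pore genes did not pass, among them Kcnb2, Kcnh2 and Kcns3, whose log2 fold changes lay between -0.13 and 0.15. Summed over all 40 Kv pore genes, the level per length was 41.04 ± 0.993 CPM per kb in IgG and 40.6 ± 0.711 in 5E1, a difference smaller than either spread. Of the 11 auxiliary Kv genes 8 were tested. None rose with edgeR and only Kcnip1 fell, beside 12.1% higher and 11.1% lower among all genes tested. At an unadjusted p under 0.05 edgeR put 1 of the 8 higher, Kcnip4, which DESeq2 also called, while limma-voom called 0 higher. Kcne4, the most abundant of them, varied widely, at 102, 57.4 and 84.4 CPM in IgG and 69.8, 95.4 and 111 CPM in 5E1, and the groups overlapped (adjusted p 0.647).

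**Figure D2:**
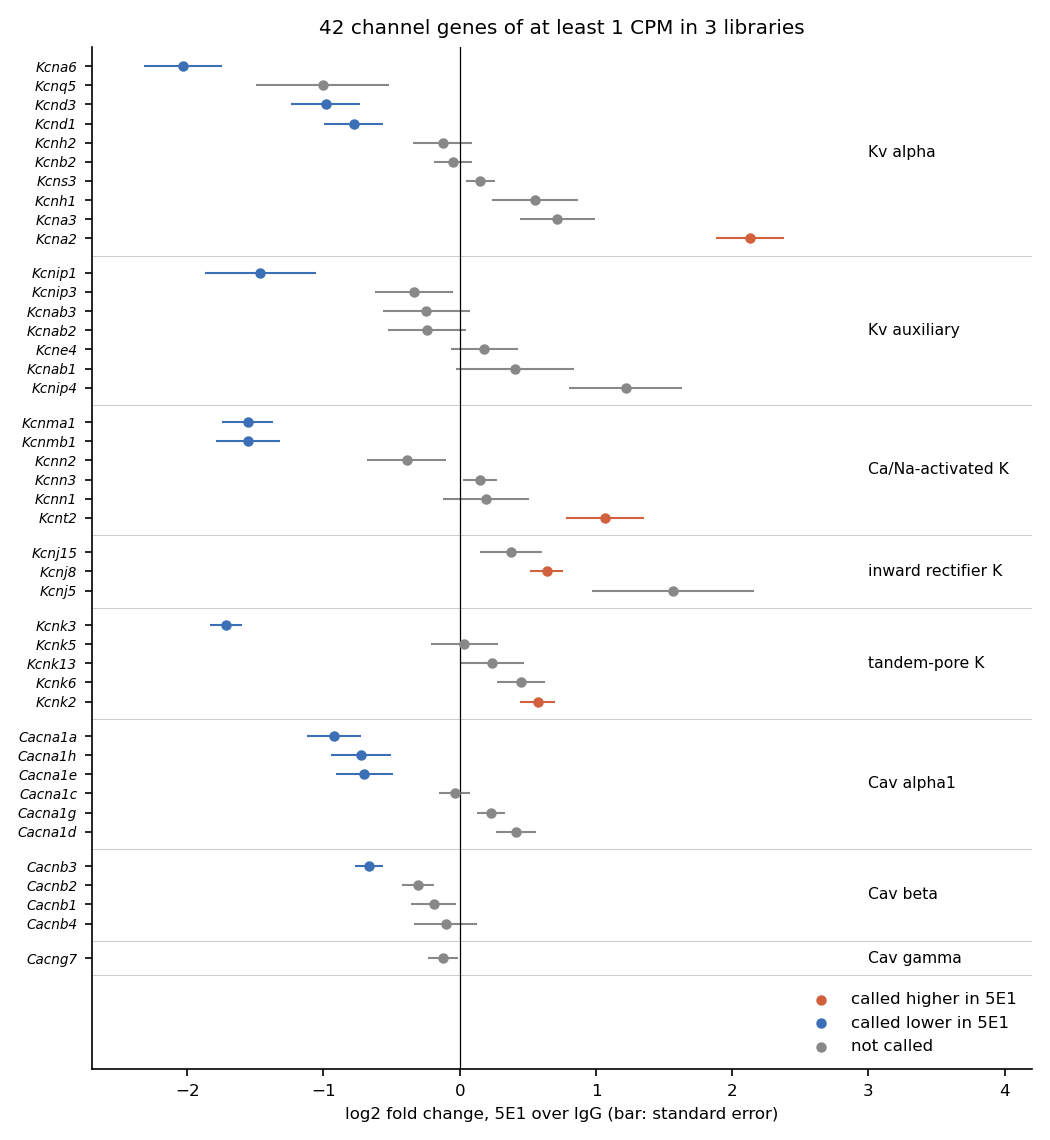
Log2 fold change of 5E1 over IgG for 42 of the 44 channel genes of at least 1 CPM in 3 libraries, in family blocks, with bars for the standard error and colour for genes called higher, called lower or not called at an adjusted p under 0.05. Called genes lie on both sides of 0 among the Kv pores, the calcium- or sodium-activated and the tandem-pore potassium channels, and on the lower side alone among the calcium channel genes with edgeR.

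Of the 12 calcium- or sodium-activated potassium channel genes 9 were tested. Both BK genes at a testable level fell by nearly the same amount. BK channels open on calcium and depolarisation together and relax smooth muscle, with Kcnma1 as pore and Kcnmb1 as the beta subunit of smooth muscle. Kcnma1 measured 14.6, 19.5 and 14.6 CPM in IgG and 5.71, 4.47 and 6.41 CPM in 5E1. It was 2.94-fold lower (log2 fold change -1.56, SE 0.19, edgeR adjusted p 0.000347). Kcnmb1 measured 6.20, 6.22 and 6.03 CPM in IgG and 2.66, 2.02 and 1.66 CPM in 5E1, 2.93-fold lower (log2 fold change -1.55, SE 0.24, adjusted p 0.00121). No 5E1 library of either gene reached the lowest IgG library. Kcnmb2, Kcnmb3 and Kcnmb4 had too few reads to be tested, with 8, 29 and 22 reads over the IgG and 27, 17 and 16 over the 5E1 libraries.

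Smooth muscle markers moved with the BK genes. Of Acta2, Myh11, Cnn1, Actg2, Myocd and Des, all but Des were called lower, beside 11.1% of all genes tested. The summed level of these markers was 3307 to 3624 CPM in IgG and 1606 to 2480 CPM in 5E1. Their part in the fall of the BK genes was not tested. On mm10, Kcnma1 lies on chromosome 14 (23289431 to 24014491), and Kcnmb1 on chromosome 11 (33963013 to 33973641) lies within the span of Kcnip1 (33629339 to 33993152) on the opposite strand, with no shared exon base. Exons of Kcnma1 share 1016 bases with 4930519K11Rik on the opposite strand, a symbol for which no counts were given.

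The small-conductance channels, opened by calcium through calmodulin, did not pass. Kcnn3, the most abundant of them, measured 14.1 ± 1.28 CPM in IgG and 15.6 ± 0.194 in 5E1 (log2 fold change 0.15, SE 0.12, edgeR adjusted p 0.431). The sodium-activated channel Kcnt2 rose, with 3.54, 2.13 and 2.76 CPM in IgG and 7.72, 4.05 and 6.19 CPM in 5E1. It was 2.09-fold higher (edgeR adjusted p 0.0220), but the adjusted p was 0.0697 to 0.0815 when IgG replicate 2 or 3, or 5E1 replicate 1 or 3, was left out. Its relative Kcnt1, under 1 CPM in most libraries, had 1, 6 and 0 reads in IgG and 10, 240 and 41 reads in 5E1. Most reads of Kcnt1 thus came from 5E1 replicate 2, the library in which markers of endothelium (228 CPM against 90.3 to 122 in the others), epithelium (311 against 124 to 167.5) and mesothelium (102 against 10.6 to 49.2) were highest. Its edgeR adjusted p was 0.0446, which became 0.0387 without that library, 0.0687 to 0.181 without any 1 IgG replicate, 0.0722 without 5E1 replicate 3, 0.0590 with library size alone, 0.0945 with limma-voom and 0.175 with no low-count filter. The part of those markers in the Kcnt1 result was not tested.

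Inward rectifiers pass potassium more easily into the cell than out of it. Of 15 genes 4 were tested. Only Kcnj8 was called, and it rose, beside 12.1% higher and 11.1% lower among all genes tested. Kcnj8 encodes the pore of the vascular form of the ATP-sensitive channel, which opens when ATP falls and is widely used as a pericyte gene. It measured 55.1, 39.1 and 49.9 CPM in IgG and 69.7, 81.1 and 73.9 CPM in 5E1. All 5E1 libraries were above all IgG libraries, at 1.56-fold (log2 fold change 0.64, SE 0.12, edgeR adjusted p 0.00437). Kcnj5, a G protein-gated channel, measured 0.685 ± 0.483 and 2.13 ± 1.06 CPM and did not pass (adjusted p 0.0819), except with DESeq2 (0.0323), in the unfiltered fit (0.0028) and without 5E1 replicate 3 (0.0453).

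Abcc9, the sulfonylurea receptor that joins the Kcnj8 pore in this channel, rose too. It measured 141, 92.5 and 100.4 CPM in IgG and 179, 203 and 221 CPM in 5E1, 1.81-fold higher (log2 fold change 0.85, SE 0.15, edgeR adjusted p 0.00449). The groups did not overlap. Kcnj8 and Abcc9 are neighbours on chromosome 6 of mm10, on the same strand with 16.2 kb between them (142564837 to 142571614 and 142587862 to 142702315). The pairing of the pancreatic form was near absent, Kcnj11 having 5 reads over the IgG and 7 over the 5E1 libraries and Abcc8 at most 0.168 CPM. Of 9 pericyte markers 2 were called higher (Gucy1a3 and Ndufa4l2) and 1 lower (Mcam), beside 12.1% higher and 11.1% lower among all genes tested. The summed level of the 9, 604 to 681 CPM in IgG, overlapped the 627 to 694 CPM of 5E1.

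The start regions of both pairs of partner genes are shown because each pair moved together. Each is the 300-base window of RefSeq on GRCm38.p6, from 250 bases before to 50 bases after a RefSeq transcript start, 5′ to 3′ on the gene's strand. Capitals mark a 7-base core of the GLI motif (GACCACC) or the MCAT motif of TEAD factors (CATTCC), on either strand. The positions are chr14:24004156-24004455 on the minus strand for Kcnma1, chr11:33962763-33963062 on the plus strand for Kcnmb1, chr6:142571565-142571864 on the minus strand for Kcnj8 and chr6:142702225-142702524 on the minus strand for Abcc9.
Kcnma1: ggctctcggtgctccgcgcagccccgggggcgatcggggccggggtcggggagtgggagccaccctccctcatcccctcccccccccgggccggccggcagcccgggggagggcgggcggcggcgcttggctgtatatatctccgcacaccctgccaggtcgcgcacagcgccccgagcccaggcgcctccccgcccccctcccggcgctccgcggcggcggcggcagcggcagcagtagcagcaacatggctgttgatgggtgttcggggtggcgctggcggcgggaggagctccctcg
Kcnmb1: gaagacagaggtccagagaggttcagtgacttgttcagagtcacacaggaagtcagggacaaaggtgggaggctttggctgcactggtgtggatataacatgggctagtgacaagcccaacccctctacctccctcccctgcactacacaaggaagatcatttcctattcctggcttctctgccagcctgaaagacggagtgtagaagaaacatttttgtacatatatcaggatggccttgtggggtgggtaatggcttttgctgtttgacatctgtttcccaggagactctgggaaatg
Kcnj8: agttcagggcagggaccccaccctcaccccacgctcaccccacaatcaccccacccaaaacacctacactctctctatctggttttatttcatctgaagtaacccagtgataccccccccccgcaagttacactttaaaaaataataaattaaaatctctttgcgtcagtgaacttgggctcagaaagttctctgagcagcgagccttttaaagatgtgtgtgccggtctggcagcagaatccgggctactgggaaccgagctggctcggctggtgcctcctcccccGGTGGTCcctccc
Abcc9: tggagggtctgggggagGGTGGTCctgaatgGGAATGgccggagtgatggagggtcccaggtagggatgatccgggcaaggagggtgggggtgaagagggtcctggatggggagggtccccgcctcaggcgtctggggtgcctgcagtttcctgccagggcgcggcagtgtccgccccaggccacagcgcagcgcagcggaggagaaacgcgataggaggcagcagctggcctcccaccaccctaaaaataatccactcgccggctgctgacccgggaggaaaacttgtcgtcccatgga

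The windows of Kcnj8 and Abcc9 each held the 7-base core once, and that of Abcc9 also held CATTCC once, while neither BK window held any motif searched. The core was chosen after the windows had been read, and 2.80% of all 32851 windows hold it. The longer GLI motif GACCACCCA, which contains the core, is in 0.253% of all windows, CATTCC in 14.7% and the CArG box of serum response factor in 1.63%. Of the 17 called channel genes 11 had a window in this table, with 17 windows between them. None of the 17 windows held the longer GLI motif or a CArG box. The core was in 2 of them, of Cacna1e and Kcnj8, and the MCAT motif in 2, of Cacna1e and Kcnk2. Over the 118 windows of all channel genes, called or not, the core was in 3 and the longer GLI motif in 1. The MCAT motif was in 18 of those 118 and the CArG box in 0. A match of letters is a description of the sequence and not a binding site.

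Among the 10 channel genes highest per length, Kcnk3 had the largest fall. Tandem-pore channels carry the background leak that sets the resting potential, and Kcnk3 is one known to do so in pulmonary artery smooth muscle. Kcnk3 measured 107, 135 and 116 CPM in IgG and 41.9, 35.0 and 32.3 CPM in 5E1. The groups were far apart, the fall being 3.28-fold (log2 fold change -1.72, SE 0.12, edgeR adjusted p 1.84e-05). Its exons share 229 bases with Gm9899 on the opposite strand, which had 585 reads over the IgG and 160 over the 5E1 libraries, beside 8750 and 2823 for Kcnk3.

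Kcnk2, a leak channel opened by stretch and by fatty acids, rose. It measured 12.98, 11.9 and 11.4 CPM in IgG and 19.5, 16.5 and 18.1 CPM in 5E1, 1.49-fold higher without overlap (log2 fold change 0.57, SE 0.13, edgeR adjusted p 0.00929). Exons of Kcnk2 share 604 bases with A430027H14Rik on the opposite strand. That gene had 9 reads over the IgG and 30 over the 5E1 libraries, beside 908 and 1405 for Kcnk2. Kcnk5, Kcnk6 and Kcnk13, the other tandem-pore genes of at least 1 CPM in 3 libraries, had log2 fold changes of 0.03, 0.45 and 0.24 and did not pass. Over all 14 tandem-pore genes the summed level per length was 38.96 ± 2.46 CPM per kb in IgG and 20.95 ± 1.2 in 5E1. Kcnk3 alone gave 73.6% to 81.6% of that sum in IgG libraries and 38.5% to 47.9% in 5E1 libraries.

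**Figure D3:**
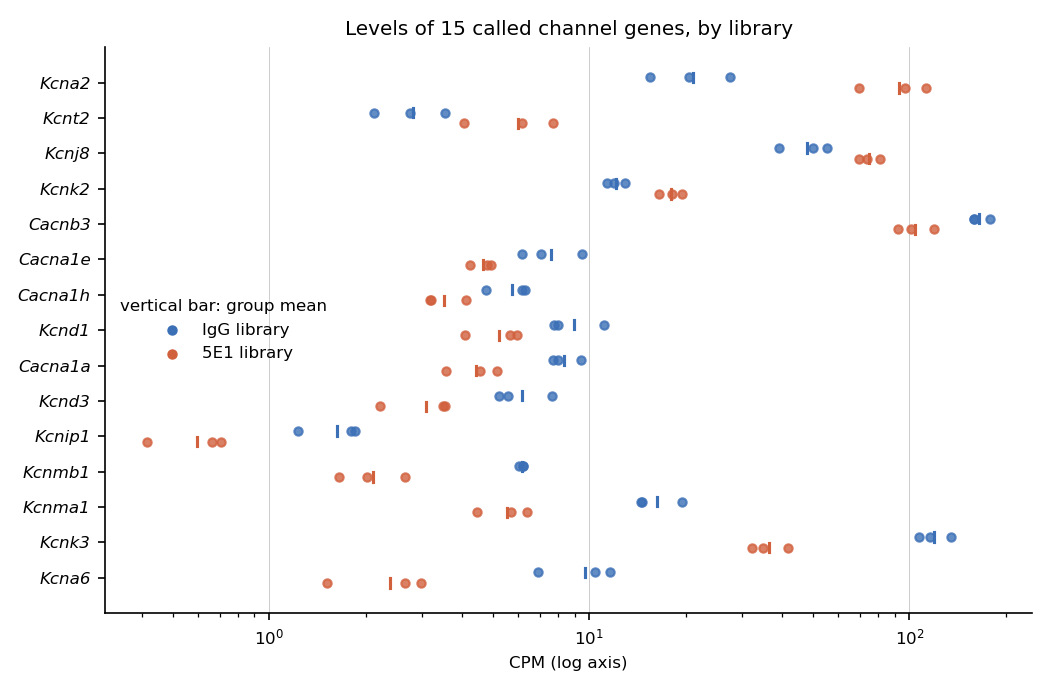
CPM (log axis) of 15 called channel genes of at least 1 CPM in 3 libraries, with a point for each library and a vertical bar for each group mean, ordered by log2 fold change. For each of the 15, the 3 5E1 libraries lie entirely above or entirely below the 3 IgG libraries, as for 45.4% of all genes of that level. The 15 were called on these same libraries, so their separation is no further support for the calls.

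The calcium channel genes that edgeR called all fell. Of 22 genes 12 were tested, 4 fell and none rose with edgeR, beside 11.1% lower and 12.1% higher among all genes tested. At an unadjusted p under 0.05 edgeR put 2 higher, Cacna1d and Cacna1g, of which DESeq2 called 1 after adjustment, Cacna1d, and limma-voom 0. Among the pore genes, those that fell were the less abundant ones. Cacna1a, the P/Q-type pore known from nerve endings, measured 7.97, 9.41 and 7.70 CPM in IgG and 5.16, 3.57 and 4.57 CPM in 5E1, 1.89-fold lower (log2 fold change -0.92, SE 0.20, edgeR adjusted p 0.0081). Cacna1e, the R-type pore, fell from 7.58 ± 1.74 to 4.65 ± 0.377 CPM (adjusted p 0.0344), and Cacna1h, a T-type pore that opens at low voltage, from 5.74 ± 0.855 to 3.51 ± 0.540 CPM (0.0357).

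The calls of Cacna1e and Cacna1h were close to the threshold. The edgeR adjusted p of Cacna1e was 0.0683 to 0.140 when IgG replicate 1 or 2, or 5E1 replicate 2 or 3, was left out, and 0.0627 with a replicate block. That of Cacna1h was 0.0645 to 0.134 when IgG replicate 1 or 3, or 5E1 replicate 2 or 3, was left out, and 0.0531 with a replicate block.

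The 3 abundant pore genes did not pass. Cacna1c, the L-type pore of smooth and cardiac muscle, measured 204, 242 and 184 CPM in IgG and 223, 197 and 194 CPM in 5E1 (log2 fold change -0.038, SE 0.11, edgeR adjusted p 0.841). Cacna1g, the other T-type pore at a testable level, measured 149 ± 17.1 and 174 ± 11.8 CPM, with all 5E1 libraries above the IgG libraries (log2 fold change 0.23, SE 0.10, adjusted p 0.126). Cacna1d, the L-type pore that opens at lower voltage, measured 120 ± 24.4 and 159 ± 20.5 CPM (log2 fold change 0.41, SE 0.15, adjusted p 0.0681). DESeq2 (0.0264), the unfiltered fit (0.000813), the replicate block (0.0159) and the fit without IgG replicate 3 (0.0159) each called Cacna1d. Summed over the 10 pore genes, the level per length was 35.7 ± 1.19 CPM per kb in IgG and 40.4 ± 1.16 in 5E1.

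Cacnb3, the most abundant beta subunit gene, fell. It measured 159, 178 and 159 CPM in IgG and 120, 92.4 and 101 CPM in 5E1. The groups did not overlap, and the level was 1.59-fold lower in 5E1 (log2 fold change -0.67, SE 0.11, edgeR adjusted p 0.00154). Cacnb1, Cacnb2 and Cacnb4 had log2 fold changes of -0.19, -0.30 and -0.10 and did not pass, but Cacnb2 did with library size alone (adjusted p 0.0164), with no low-count filter (0.0120) and without 5E1 replicate 1 (0.0401). Cacnb3 gave 81.1% to 81.6% of the summed beta subunit level per length in IgG libraries and 73.0% to 78.8% in 5E1 libraries. Cacng7 measured 46.1 ± 2.95 and 42.4 ± 5.59 CPM (adjusted p 0.444).

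A list of 22 partner genes of these channels gave 12 tested genes, of which 3 rose and 1 fell, beside 12.1% higher and 11.1% lower among all genes tested. The gene that fell was Cacna2d3, an alpha2delta subunit, which is a largely extracellular partner of the calcium channel pore. It measured 28.5, 30.6 and 20.9 CPM in IgG and 9.51, 6.73 and 5.71 CPM in 5E1, 3.68-fold lower (log2 fold change -1.88, SE 0.21, edgeR adjusted p 0.000281). Cacna2d1, the most abundant alpha2delta gene, measured 155 ± 13.9 and 151 ± 14.5 CPM (adjusted p 0.842), and Cacna2d2 and Cacna2d4 had too few reads to be tested.

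Besides Abcc9, both partner genes that rose encode small GTPases that inhibit voltage-gated calcium channels through their beta subunits. Gem measured 163, 113 and 138 CPM in IgG and 264, 333 and 264.5 CPM in 5E1, 2.08-fold higher (log2 fold change 1.06, SE 0.14, edgeR adjusted p 0.000822). Rrad measured 43.8, 37.1 and 55.4 CPM in IgG and 74.8, 63.5 and 72.9 CPM in 5E1, 1.54-fold higher (log2 fold change 0.63, SE 0.14, adjusted p 0.0092). Neither gene's groups overlapped. Rem1 and Rem2 of the same family had log2 fold changes of -0.27 and -0.59 and did not pass.

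**Figure D4:**
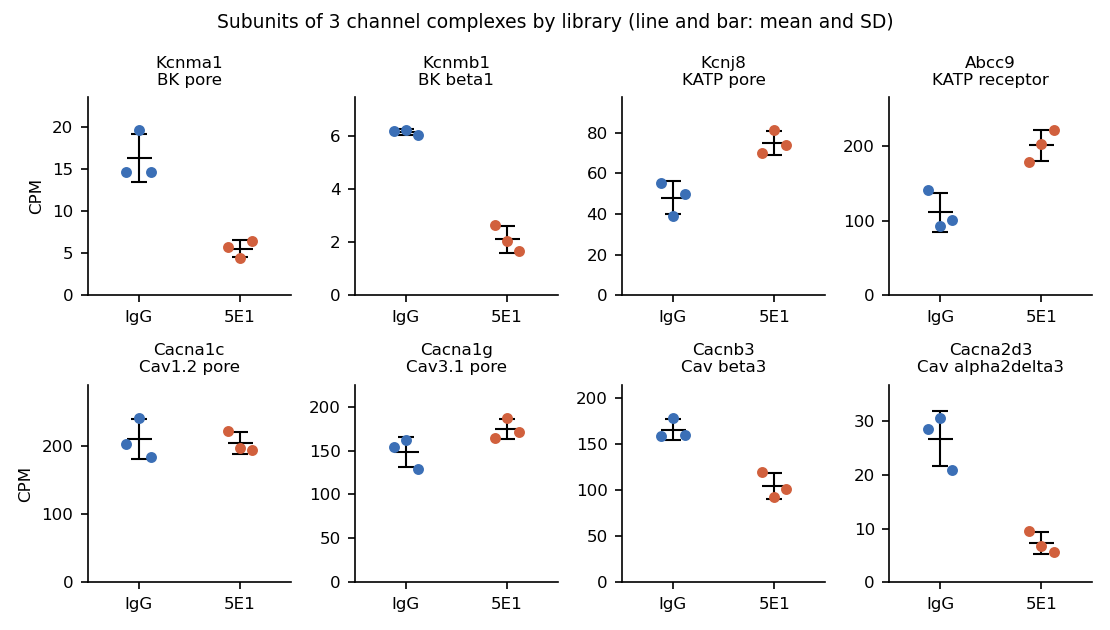
CPM (linear axes from 0) of subunit genes of the BK channel (Kcnma1, Kcnmb1), the ATP-sensitive channel (Kcnj8, Abcc9) and voltage-gated calcium channels (Cacna1c, Cacna1g, Cacnb3, Cacna2d3), with a point for each library and a line and bar for the mean and SD of 3 libraries. Both BK genes fell and both ATP-sensitive channel genes rose, while Cacna1c overlapped between groups and Cacnb3 and Cacna2d3 fell.

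Genes that store, release or remove calcium were read from a list of 37, of which 28 were tested, 4 rose and 5 fell, again beside 12.1% higher and 11.1% lower among all genes tested. The median log2 fold change of the 28 was 0.025. Trpc6, a cation channel opened by diacylglycerol, fell most, from 11.8, 12.2 and 11.4 CPM in IgG to 2.23, 3.22 and 1.84 CPM in 5E1. Jph1, which ties the calcium store to the surface membrane, fell by 0.86 on the log2 scale (edgeR adjusted p 0.00295), Slc8a2, a sodium-calcium exchanger, by 0.98 (0.00669) and Mrvi1, a partner of the IP3 receptor, by 0.66 (0.0031). Piezo2, a stretch-activated channel, fell by 0.62 (0.0226), and its adjusted p was 0.0642 without IgG replicate 1 and 0.0771 without IgG replicate 2.

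Ryr2, a release channel of the store, rose from 1.96 ± 0.0529 to 4.95 ± 0.526 CPM (2.53-fold, edgeR adjusted p 0.00224), and Stim1, the sensor of store filling, from 54.3 ± 3.28 to 85.9 ± 10.6 CPM (1.58-fold, adjusted p 0.00119). Trpc1 rose by a log2 fold change of 0.41 (adjusted p 0.0140) and Atp2b4, a calcium pump of the surface membrane, by 0.50 (0.0175). The call of Trpc1 ended at 0.0570 to 0.0634 without IgG replicate 2 or 3 or 5E1 replicate 3, and at 0.0766 with library size alone. That of Atp2b4 ended at 0.0547 to 0.0744 without IgG replicate 1 or 3 or 5E1 replicate 3, and at 0.0521 with library size alone. The store pump Atp2a2, the IP3 receptor genes Itpr1 and Itpr2 and the entry channel genes Orai1, Orai2 and Orai3 did not pass, with log2 fold changes between -0.17 and 0.41. Itpr3, the third IP3 receptor gene, lay at the threshold, with 6.64, 4.87 and 9.51 CPM in IgG and 9.67, 11.7 and 12.9 CPM in 5E1. Its groups did not overlap (log2 fold change 0.70, SE 0.23), and its edgeR adjusted p of 0.0506 ranged from 0.00305 to 0.163 over the alternatives.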

How the data were processed

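RNA of sorted EGFP-positive lung cells was read in 6 libraries, 3 IgG and 3 5E1, grouped and numbered by their titles. The authors deposited 1 table per library with raw read counts by gene symbol, and its 5 HTSeq summary lines, which name no gene, were left out. Unaligned reads took 20.4% to 42.9% of a library and reads ambiguous between genes 1.94% to 2.66%. Of uniquely aligned reads, 7.70% to 8.87% in IgG and 9.07% to 10.82% in 5E1 lay in no gene. Reads aligned to several places took 5.27% to 5.4% of a library in IgG and 5.70% to 6.255% in 5E1. Neither of these last measures overlapped between groups, and their part in the results was not tested. The submitters' processing notes name mm10 and, with no roles, R 3.5.1, HTSeq 0.6.0, DESeq2 1.10.0, STAR 2.5.0c, bedtools 2.17.0 and Picard 1.126. The annotation and the strand setting of the counting are not given there, so overlapping genes may have exchanged reads. Genes passing filterByExpr (minimum count 10, minimum total 15) were scaled by TMM. The two-sided quasi-likelihood test of edgeR 4.0.16 under R 4.3.3 (robust, group as the only term) was then applied to all of them, after a check on simulated data. Levels are CPM on TMM-scaled library sizes, as means ± SD of 3 libraries. No replicate pair was alike within sampling noise (chi-square per degree of freedom 16.1 to 55.8). Positions and exon lengths come from GENCODE M21 on GRCm38, matched by symbol. The text names the called channel genes, the 10 highest per kb, called partner and calcium-handling genes, and further genes chosen after their values were seen. A few genes that enter the counts are not reported here by name or drawn. Members and lists were chosen with earlier results of these data known. Alternatives were DESeq2 1.42.0, voom in limma 3.58.1, scaling by RLE or by library size alone, other low-count filters and no robust estimation. Further ones were a replicate block, a term marking the libraries with nearly no Y-linked reads, and leaving out each library.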

Additional observations from a re-analysis of the deposited data

How the results depend on the processing

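Of the 17 called channel genes, 10 (among them Kcnk3, Kcnma1, Kcna6, Kcnmb1, Cacnb3, Kcna2, Kcnj8, Cacna1a and Kcnk2) kept their call in every alternative that was run. The 5 higher calls became 8 with DESeq2, 10 unfiltered and 3 with a filter of 5 CPM, which tests fewer genes. Among genes of at least 1 CPM in 3 libraries, the 4 became 7 with DESeq2 and 7 unfiltered. Leaving out 1 library gave 3 (without IgG replicate 2) to 5 higher, 3 to 4 among those of at least 1 CPM, and 8 (without IgG replicate 1 or 5E1 replicate 2) to 14 lower. Partner and calcium-handling genes called higher rose from 7 to 11 with DESeq2, and leaving out 1 library gave 6 to 9 higher and 5 to 6 lower. Library size alone moved the all-gene median log2 fold change from 0.00087 to -0.14 and that of channel genes from 0.15 to 0.013, with 4 channel genes higher and 13 lower. Over all genes, 3274 were lower with library size alone, and with 1 library left out as few as 1221 were higher and 1073 lower, against 1966 and 1791. With the replicate block, 6 channel genes were higher and 9 lower; same-numbered libraries did not deviate together (correlations of -0.106, -0.0365 and -0.0854), and none of the 6 correlated best with its own number, so the numbers were not taken as pairs. Leaving out 1 library took the uncalled log2 fold changes of Cacna1c from -0.13 to 0.071, of Kcne4 from -0.019 to 0.38 and of Cacna2d1 from -0.098 to 0.042, with a change of sign without IgG replicate 2 for all of them (0.03 for Cacna2d1) and without 5E1 replicate 1 for Cacna2d1. The causes were not tested. Depth limits the 55 untested channel genes, none of which exceeded a mean of 0.472 CPM.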

Other observations

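Among channel genes with too few reads to be tested, some had most of their reads in 1 group. Kcng1, a modulatory Kv subunit, had 3, 3 and 6 reads in the IgG libraries and 2, 33 and 34 in the 5E1 libraries. Kcna1, a Kv1 subunit, had 1 read over the IgG libraries and 4, 16 and 4 in the 5E1 libraries. Kcnj13, an inward rectifier, had 3 reads over the IgG and 24 over the 5E1 libraries. Conversely, Cacng5, named as a gamma subunit, had 5, 3 and 3 reads in the IgG libraries and 0 in each 5E1 library. Cacng3 had 6 reads over the IgG and 0 over the 5E1 libraries. These genes were chosen after their reads were seen.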
